A study of Mus musculus with 12 samples.

Results

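The genes described here are the cytoplasmic ribosomal protein genes of the mouse, read in brain and liver of male mice that either carry or lack Vaultrc5, which encodes a vault RNA, a short RNA that is not translated. They were taken by symbol: Rpl or Rps followed by digits and at most one of the letters a, x or l, together with Rplp0, Rplp1, Rplp2 and Rpsa. Symbols containing -ps, which name pseudogenes, were left out. Of the 55450 genes in the count table, 83 met this rule, which used no measured value. They comprised 46 genes of the large and 30 of the small ribosomal subunit, plus 7 genes whose symbol ends in l (Rpl3l, Rpl6l, Rpl10l, Rpl32l, Rpl39l, Rps4l and Rps27l). Rpl6l, Rpl32l and Rps4l are annotated as pseudogenes. The rule leaves out genes of the same proteins with other symbols, such as Rps3a1 and Fau.

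Ribosomal proteins are needed in near-equal amounts, because each ribosome holds a single copy of almost every one of them, the acidic stalk proteins Rplp1 and Rplp2 being the known exception. Their mRNAs are short and abundant, and most begin with a cytosine followed by an unbroken tract of pyrimidines, the 5′ terminal oligopyrimidine (TOP) motif, through which mTORC1 signalling controls their translation. The genes have introns, and their mRNAs have often been reverse transcribed into processed pseudogenes, so a short read cannot always be assigned to the functional gene.

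All mice were 7 to 9 weeks old, with the genotype Vaultrc5+/+ or Vaultrc5-/-. Titles of the Vaultrc5+/+ libraries read flx, while their genotype label reads wild-type, the name used below. The labels name neither a strain nor a Cre driver, and they give the tissue only as brain or liver. Total RNA was depleted of ribosomal RNA and sequenced as single-end reads, with 3 libraries in each of the 4 groups wild-type brain, knockout brain, wild-type liver and knockout liver. Nothing beyond the titles says that the libraries of a group come from separate animals, so the p-values measure only the spread between these libraries, which may be technical.

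The deposited expected counts summed to 14844971 to 18567381 in the brain libraries and 23247449 to 27155480 in those of liver. Vaultrc5 had 4, 1 and 4 counts in wild-type brain, 33, 39 and 48 in wild-type liver and 0 in each of the 6 knockout libraries, where a count of 0 allows up to 3. Brain markers such as Snap25 summed to 4973 to 7645 CPM in the brain libraries and to at most 49.5 CPM in liver. Liver markers such as Alb summed to 83075 to 110906 CPM in liver and to at most 3.07 CPM in brain. CPM, the usual scaling of counts to library size, is taken here relative to the library sizes that edgeR's TMM scaling gave over all 12 libraries, so the values share one scale across the tissues.

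The starts of some ribosomal protein genes are shown because TOP mRNAs are known to begin with a pyrimidine tract, here for members named in the tissue comparison and for Rps27, the partner of Rps27l. RefSeq promoter entries (GRCm38.p6) matched 61 of the 83 genes, with 73 start sites. Rps27l has 2 entries, of which the first is printed. Each sequence holds the 20 bases before the RefSeq start and the 20 bases from it onwards, 5′ to 3′ on the strand of the gene, and capitals mark unbroken runs of at least 5 C or T letters.
Rps27l, chr9:66946066-66946105, plus strand: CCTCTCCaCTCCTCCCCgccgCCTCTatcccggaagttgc
Rpl10, chrX:74270796-74270835, plus strand: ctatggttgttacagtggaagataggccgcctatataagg
Rps2, chr17:24720043-24720082, plus strand: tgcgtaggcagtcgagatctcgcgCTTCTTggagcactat
Rplp0, chr5:115559447-115559486, plus strand: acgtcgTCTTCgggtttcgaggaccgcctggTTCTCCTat
Rps26, chr10:128626487-128626526, minus strand: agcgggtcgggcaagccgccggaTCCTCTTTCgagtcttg
Rps18, chr17:33955646-33955685, minus strand: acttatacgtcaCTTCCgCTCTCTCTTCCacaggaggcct
Rps15a, chr7:118116128-118116167, minus strand: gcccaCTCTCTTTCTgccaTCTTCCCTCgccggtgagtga
Rps27, chr3:90213629-90213668, minus strand: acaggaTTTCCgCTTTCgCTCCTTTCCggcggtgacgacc
Among the 73 windows of 40 bases, 42.5% held an unbroken run of at least 8 C or T letters on the transcribed strand, against 16% of the 32851 windows of all genes. On the other strand the shares were 6.85% and 17.7%. The pentamer CTTTC, which can lie inside such a run, was in 26% of the members' windows and 5.49% of all windows on the transcribed strand, and in 4.11% and 4.86% on the other strand. CTTCC, which overlaps the same runs, was in 23.3% against 8.81% on the transcribed strand and in 16.4% against 9.82% on the other. The printed windows of Rps27l, Rps26, Rps18, Rps15a and Rps27 hold runs of 9 to 11 pyrimidines. That of Rps27l and the longest of Rps15a lie before the RefSeq start, while another run of Rps15a spans its start. The longest run at the other Rps27l start is 4 and the longest run in the Rpl10 window is 3. These matches describe the letters only.

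A pair of coding sequences shows a stretch that short reads cannot tell apart. Rpl10 encodes a large subunit protein that joins the particle late in its maturation, and the gene lies on chromosome X (chrX:74270812-74273135, plus strand, GENCODE annotation of GRCm38). Rpl10-ps3 is a copy on chromosome 9 (chr9:50344201-50344968, minus strand) that the annotation lists as protein coding. All 645 coding bases of Rpl10 were found in Rpl10-ps3 with 0 mismatches, and the first 60 are printed below, where capitals would mark a mismatch.
Rpl10: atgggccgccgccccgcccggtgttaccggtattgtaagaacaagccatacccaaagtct
Rpl10-ps3: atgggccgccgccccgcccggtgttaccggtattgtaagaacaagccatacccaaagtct
Rps27 and Rps27l, the genes of a zinc finger protein of the small subunit and of its paralog, stand at the other end. Rps27 lies at chr3:90212522-90213651 on the minus strand and Rps27l at chr9:66946086-66949516 on the plus strand. Over 250 aligned coding bases they were 79.2% identical, with 52 mismatches. In coding bases 37 to 96 of Rps27, the first stretch of 60 without a gap, 11 bases differ and are in capitals.
Rps27: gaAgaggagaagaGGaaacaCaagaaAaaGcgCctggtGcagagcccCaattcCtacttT
Rps27l: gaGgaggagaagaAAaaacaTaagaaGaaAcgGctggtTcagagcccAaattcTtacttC
The counts of Rps27l were whole numbers in all 12 libraries, whereas those of Rpl10 were fractional in all 12. Of the 83 genes, 77 had a fractional expected count in at least 1 library.

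The 83 genes took a larger share of the counts in liver than in brain. They made up 0.472%, 0.478% and 0.521% of all counts in wild-type brain, 0.443%, 0.477% and 0.485% in knockout brain, 0.652%, 0.670% and 0.733% in wild-type liver and 0.624%, 0.611% and 0.674% in knockout liver. No brain library reached a liver library, while within each tissue the genotypes overlapped. Between liver libraries of the same number, which the check in the processing notes pairs, the knockout share was the lower in all 3 pairs. So was the summed CPM of the members. In brain too the knockout was the lower at each of the 3 numbers, in share and in summed CPM. The brain sums at number 2 were close, at 3613 CPM in the knockout and 3635 in the wild type. These differences are a description, with no test. The 3rd replicate was the highest of its group in all 4 groups. On the scaled CPM the sum over the members was 3622 ± 165 (SD, n = 3) in wild-type brain, 3524 ± 244 in knockout brain, 9076 ± 425 in wild-type liver and 8633 ± 132 in knockout liver. The share of the mitochondrial ribosomal protein genes lay between 0.120% and 0.138% in all 12 libraries. There too the wild-type liver libraries (0.133% to 0.138%) lay above all brain libraries (0.120% to 0.132%), while those of knockout liver (0.122% to 0.130%) overlapped with brain.

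The summed counts of the 46 large subunit genes exceeded those of the 30 small subunit genes in each library. These sums were not divided by the number of genes, so the excess is not one per gene. Their ratio was 1.52, 1.53 and 1.48 in wild-type brain and 1.497, 1.51 and 1.54 in knockout brain, which overlap. Wild-type liver gave 1.45, 1.46 and 1.42 and knockout liver 1.49, 1.49 and 1.47, so the knockout libraries lay above the wild-type ones. The difference in liver is given as a description, with no test.

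**Figure D1:**
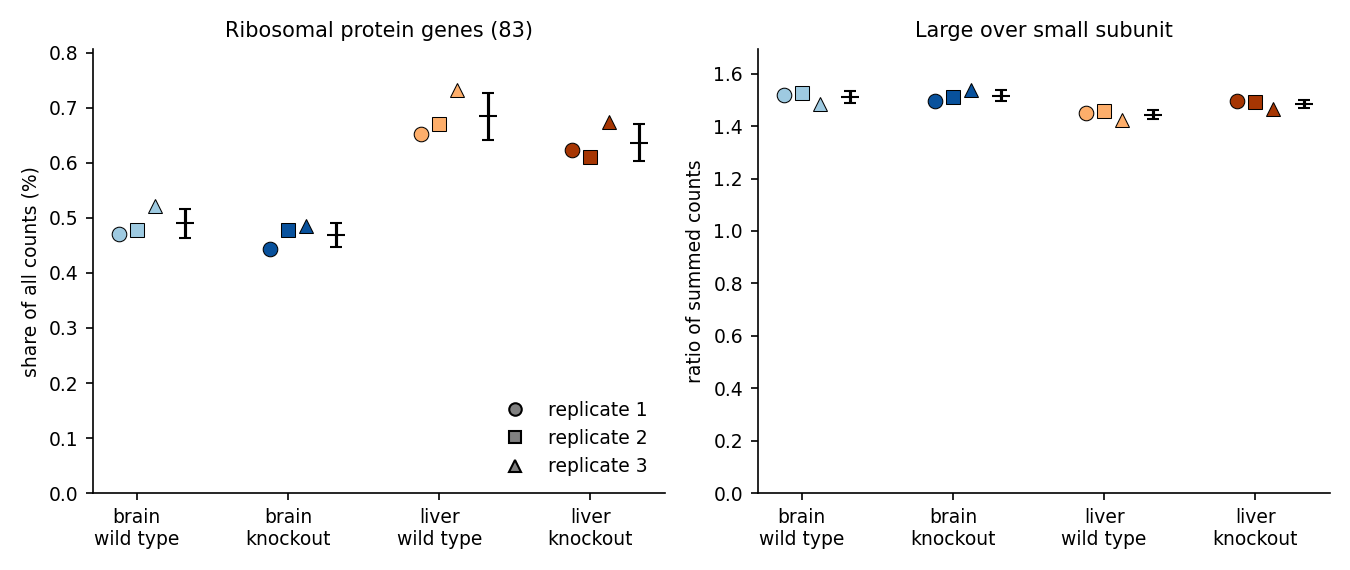
Share of all counts on the 83 ribosomal protein genes in percent (left) and ratio of the summed counts of large and small subunit genes (right, genes ending in l left out), per library. Symbols are replicates and black bars are mean ± SD of 3 libraries; the liver libraries (0.611% to 0.733%) lie above the brain libraries (0.443% to 0.521%) on the left, and the liver knockout ratio lies above that of the liver wild type on the right.

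Levels were compared between genes per kb of merged exon. Among the 76 genes without the suffix l, Rplp1, a stalk protein that binds elongation factors, was highest in both tissues, at 156 ± 17.8 CPM per kb (SD, n = 3) in wild-type brain and 429 ± 30.1 in wild-type liver. Rps15, at 121 ± 8.01, and Rpl23a, at 88.2 ± 5.13, followed in wild-type brain on this length. In liver Rps2, which lines the mRNA entry channel, was second at 248 ± 11.6 CPM per kb, followed by Rps15 at 214 ± 13.0. The median over the 76 genes was 21.8 CPM per kb in wild-type brain, 21.4 in knockout brain, 55.7 in wild-type liver and 57.5 in knockout liver.

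The lowest row in every group was that of Rpl27, a large subunit protein, at 2.24 ± 0.33 CPM per kb in wild-type brain and 3.72 ± 1.25 in wild-type liver. Rpl36a, at 4.12 ± 0.24, and Rpl5, at 6.67 ± 0.73, came next in wild-type brain. Rpl5 is the large subunit protein that carries the 5S ribosomal RNA. In wild-type liver Rps15a, at 7.03 ± 0.32, and Rpl5, at 10.8 ± 5.38, came next, and these 2 differ by less than the SD of Rpl5. The merged exon model of Rps15a spans 6270 nt and the median over the 83 genes is 1734 nt. Its longest protein-coding transcript is also long, at 5179 nt, and in wild-type liver it ranked 75 on both lengths. For other genes the order depended on the length used. Per kb of the longest protein-coding transcript, Rpl36a in wild-type brain stood at 14.1 and ranked 70 of 76 in place of 75. Rps15 in wild-type liver ranked 8 in place of 3. On that length Rpl23a, at 133.4, ranked 2 and Rps15, at 133.05, ranked 4 in wild-type brain, and Rpl5 ranked 72 in place of 74. In knockout brain Rpl23a ranked 4 in place of 3. Rpl27 was last and Rplp1 first in each group on both lengths. These are counts on the members' own rows, and near-identical copies, described below, held 90.3% of the counts of Rpl27 and its copies, 73.0% for Rpl5 and 55.7% for Rpl36a. With them the counts of Rpl27 in wild-type brain were 475, 553 and 561 in place of 86.6, 70.4 and 85.5, and no order was made with copies added.

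**Figure D2:**
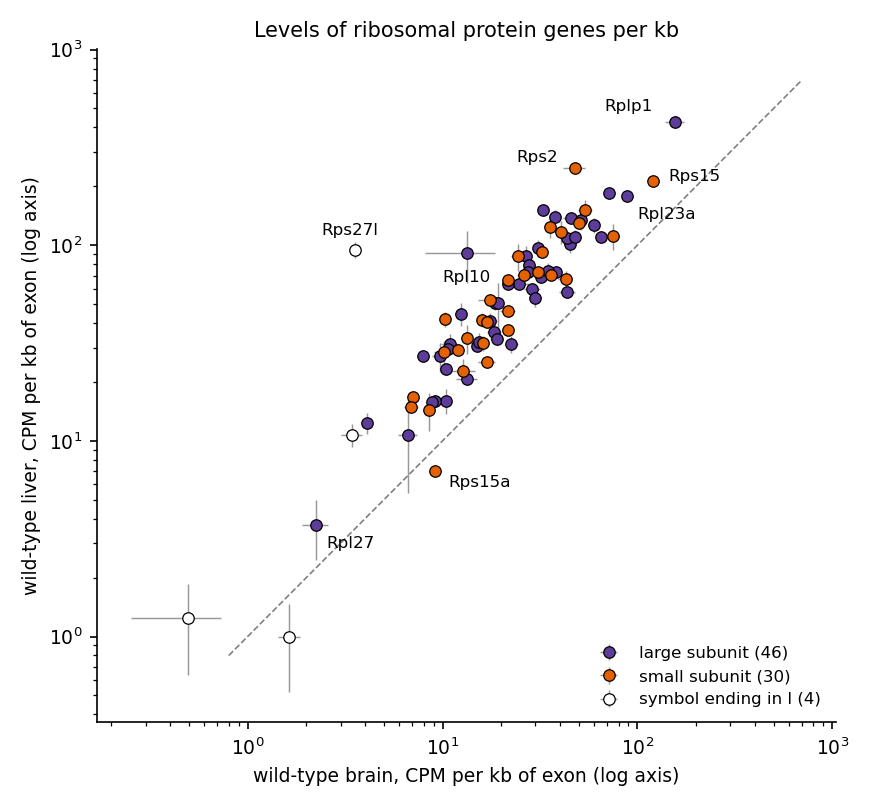
Mean level in wild-type brain (horizontal) and wild-type liver (vertical) in CPM per kb of merged exon, both on log axes, for the 80 ribosomal protein genes that passed the count filter; bars are SD of 3 libraries and the dashed line marks equal levels. Rps15a and the pseudogene Rpl32l lie below the line, and Rps27l lies farthest above it.

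Between the tissues, most ribosomal protein genes were lower in brain on the TMM scale, and fewer were when library totals set the scale. In the wild type, 76 of the 80 genes that passed the count filter were lower in brain and 1 was higher (edgeR quasi-likelihood test, Benjamini-Hochberg adjusted p under 0.05). The background is large, since 78.6% of the 18850 genes tested passed, 43.9% as higher and 34.7% as lower in brain. The knockout comparison shares no library with it, and there 75 of 80 were lower and 1 was higher, against 43.5% higher and 35.2% lower among 18785 genes (78.7% in all). Fold changes below 0 were found for 78 of 80 members in each comparison, and for 45.2% of all genes in the wild type and 45.3% in the knockout. Ranges did not overlap for 76 members as lower and 2 as higher in the wild type (36.6% and 45.8% of all genes), and for 77 and 1 in the knockout (36.5% and 45.9%). With the replicate as a block 76.9% and 76.6% of all genes were called and 77 members in each genotype. Of the 80, 74 were lower in both, 73 of them with brain and liver ranges apart in both, against 33.3% and 32.9% of the 18380 genes tested in both. In bulk tissue, fewer cells of a type and less RNA per cell cannot be told apart.

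The median log2 fold change of brain over liver was -1.26 over the 80 genes and 0.21 over all genes in the wild type, a distance of -1.48, or 2.78-fold. In the knockout the values were -1.20 and 0.21, a distance of -1.40. Scaling by library totals instead moved the median of all genes to 1.05 in the wild type and 1.07 in the knockout, and the calls over all genes then split into 11623 higher and 3999 lower, and 11614 and 3887. With it, 62 members in the wild type and 60 in the knockout had a fold change below 0, in place of 78 in each. Then 49 members were called lower and 4 higher in wild-type brain. In knockout brain 41 were lower and 6 higher, while the distances from the median of all genes were -1.48 and -1.40 as before. Of the 80 genes, 78 lay below the median of all genes in each comparison under either scaling. The members' fold changes in the wild type and in the knockout correlated at a Pearson r of 0.96 over 80 genes, and at 0.94 without Rps27l. These genes share libraries, so r carries no test.

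**Figure D3:**
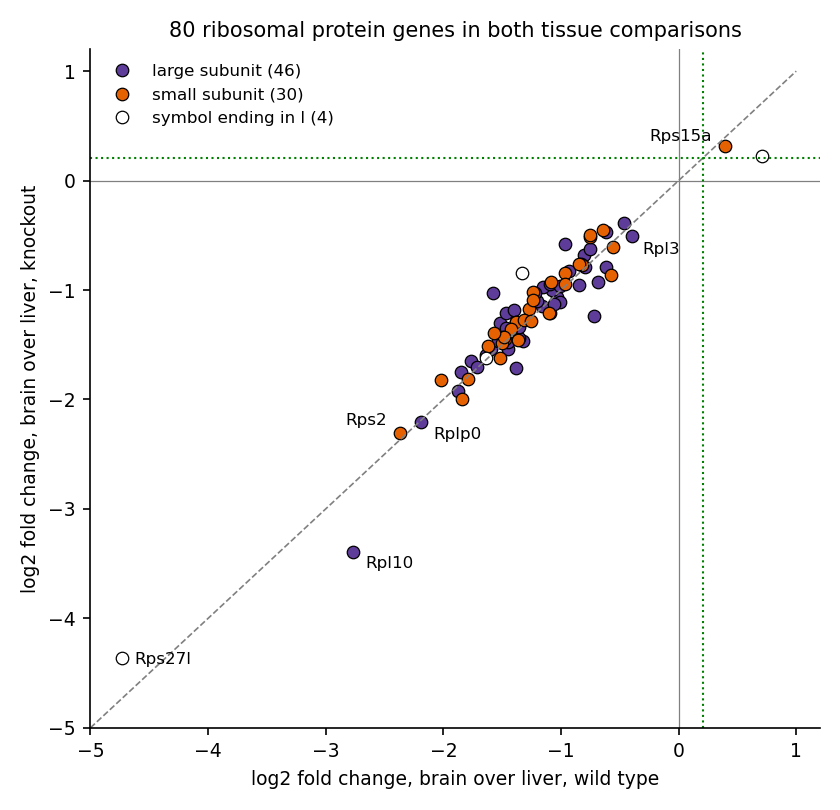
Log2 fold change of brain over liver in wild-type (horizontal) and knockout mice (vertical) for the 80 ribosomal protein genes tested, coloured by subunit. The dashed line marks equal values, and green dotted lines mark the median of all genes (0.21 on both axes); 78 genes lie below 0 in each comparison, whereas 62 in the wild type and 60 in the knockout did when library totals replaced the TMM scaling.

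Rps27l stood apart from the rest. Its level was 2.70, 3.07 and 2.94 CPM in wild-type brain, 3.16, 3.39 and 4.17 in knockout brain, 83.9, 78.8 and 69.7 in wild-type liver and 69.9, 69.4 and 79.8 in knockout liver. Each brain library lay below each liver library, and the log2 fold change of brain over liver was -4.73 ± 0.13 (standard error) in wild type and -4.36 ± 0.14 in knockout mice, with edgeR adjusted p-values of 8.45e-08 and 2.33e-07. This is 26.5-fold and 20.6-fold lower in brain, and with library totals the log2 fold changes were -3.89 and -3.502. Its partner Rps27 was at 34.7, 39.9 and 37.9 CPM in wild-type brain, 33.9, 40.1 and 35.2 in knockout brain, 71.4, 76.9 and 72.05 in wild-type liver and 63.02, 65.1 and 65.9 in knockout liver, with log2 fold changes of -0.96 ± 0.10 and -0.84 ± 0.10 (adjusted p 5.14e-05 and 1.30e-04). Rps27 thus differed between the tissues by far less, and with library totals its fold change was -0.13 in the wild type, no longer past the threshold, and 0.03 in the knockout. Rps27l is known as a target of p53.

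Rpl10 had the second largest fold change on the members' own rows, without copies. Its levels were 15.3, 31.3 and 35.7 CPM in wild-type brain, 16.2, 27.1 and 21.5 in knockout brain, 181, 246 and 135 in wild-type liver and 247, 280.2 and 146 in knockout liver. The spread within groups was wide, up to 39.2% of the mean in wild-type brain, yet the tissues did not overlap. For Rpl10, the log2 fold change of brain over liver was -2.77 ± 0.35 (standard error) in wild type and -3.39 ± 0.30 in knockout mice, with edgeR adjusted p-values of 1.84e-04 and 2.80e-05. Its 9 near-identical copies held 34.0% of the summed counts of gene and copies, as described below, and with them added the log2 fold changes were -2.26 ± 0.12 and -2.38 ± 0.10. With library totals and without copies they were -1.92 and -2.51.

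Members with roles in the small subunit or the stalk followed. Rps2 was at 74.4, 97.02 and 90.2 CPM in wild-type brain, 73.5, 91.5 and 101 in knockout brain, 439.7, 443 and 478 in wild-type liver and 438, 423 and 441 in knockout liver, and the log2 fold change of brain over liver was -2.37 ± 0.13 (standard error) in wild type and -2.31 ± 0.14 in knockout mice, with edgeR adjusted p-values of 1.80e-06 and 3.96e-06. Rplp0, the core of the stalk that anchors Rplp1 and Rplp2, was at 54.8, 51.5 and 57.8 CPM in wild-type brain, 49.2, 54.3 and 56.00 in knockout brain, 238, 263 and 252 in wild-type liver and 232, 272 and 227 in knockout liver, and the log2 fold change of brain over liver was -2.19 ± 0.10 (standard error) in wild type and -2.21 ± 0.12 in knockout mice, with edgeR adjusted p-values of 7.44e-07 and 2.00e-06. In both genes brain and liver were far apart and the genotypes overlapped. Rps26, which sits near the mRNA exit, was at 34.4, 38.8 and 39.4 CPM in wild-type brain, 34.3, 39.3 and 36.6 in knockout brain, 124, 122 and 159.8 in wild-type liver and 144, 142 and 149 in knockout liver, and was 3.59-fold and 3.99-fold lower in brain (adjusted p 8.69e-06 and 1.19e-06). Rps18, a protein of the head of the small subunit, was at 24.7, 25.6 and 25.3 CPM in wild-type brain, 21.6, 24.8 and 27.5 in knockout brain, 94.6, 101 and 112 in wild-type liver and 84.7, 88.6 and 85.04 in knockout liver, with -2.02 ± 0.10 and -1.82 ± 0.11 (adjusted p 1.05e-06 and 4.04e-06). Under library totals these genes kept their direction with smaller log2 fold changes, at -1.54 and -1.44 for Rps2, -1.35 and -1.34 for Rplp0, -1.01 and -1.13 for Rps26 and -1.18 and -0.95 for Rps18.

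Rps15a, a protein of the body of the small subunit, was the only member called higher in brain in both comparisons. Its level was 61.3, 53.1 and 58.5 CPM in wild-type brain, 57.4, 52.3 and 49.4 in knockout brain, 44.4, 45.96 and 41.96 in wild-type liver and 44.6, 41.4 and 40.3 in knockout liver. Every brain library lay above every liver library, and the log2 fold change of brain over liver was 0.39 ± 0.10 (standard error) in wild type and 0.32 ± 0.10 in knockout mice, with edgeR adjusted p-values of 0.00752 and 0.0194. The difference is 1.31-fold and 1.25-fold, and it lay 0.18 and 0.11 above the median of all genes on the log2 scale. With library totals the log2 fold changes were 1.23 and 1.19. Without replicate 2 or replicate 3 of the knockout liver the adjusted p of the knockout comparison became 0.0614 and 0.0691, and no member was then called higher.

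The other stalk proteins and Rpsa, the small subunit protein also known as a laminin receptor precursor, were lower in brain. Rplp1 was at 69.7, 87.3 and 76.3 CPM in wild-type brain, 68.04, 83.5 and 96.8 in knockout brain, 199, 214 and 229 in wild-type liver and 234, 224 and 227 in knockout liver, with log2 fold changes of -1.45 ± 0.12 and -1.48 ± 0.14 (adjusted p 1.61e-05 and 4.35e-05). Rplp2 was at 33.02, 37.1 and 38.7 CPM in wild-type brain, 35.1, 35.6 and 38.1 in knockout brain, 77.7, 83.6 and 93.97 in wild-type liver and 73.9, 74.97 and 70.9 in knockout liver, with -1.22 ± 0.12 and -1.03 ± 0.09 (adjusted p 3.25e-05 and 2.26e-05). The tissues did not overlap for either gene, although under library totals the log2 fold changes were -0.62 and -0.61 for Rplp1 and -0.39 and -0.16 for Rplp2, the last no longer past the threshold. Rpsa was at 117, 130.5 and 139.7 CPM in wild-type brain, 119.6, 138 and 125 in knockout brain, 328, 361 and 425 in wild-type liver and 387, 387 and 387 in knockout liver, with -1.52 ± 0.14 and -1.62 ± 0.11 (adjusted p 2.37e-05 and 5.47e-06), and -0.68 and -0.75 with library totals.

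On the TMM scale Rpl3 had the smallest called decrease in the wild type and Rpl9 in the knockout (-0.39 ± 0.11). With library totals Rpl9 was instead higher in knockout brain than in knockout liver. Rpl3, which lies close to the peptidyl transferase centre, was at 127, 135 and 154 CPM in wild-type brain, 115, 135 and 137 in knockout brain, 179, 178 and 192 in wild-type liver and 173, 171 and 199 in knockout liver, with log2 fold changes of -0.39 ± 0.11 and -0.50 ± 0.12 (adjusted p 0.0113 and 0.00559). Its sign depended on the scaling, since with library totals the values were 0.44 and 0.36. Rpl3 therefore lay nearer to the median of all genes than most other members. Not called in the wild type were Rpl5, Rpl6l and Rpl32l, and not called in the knockout were Rps12, Rps21, Rpl6l and Rpl32l.

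Of the genes ending in l, Rpl10l had 0 counts in all 12 libraries, which allows up to 3 counts in each. Rpl39l had 0 or 1 count and Rpl3l 0 to 4 counts, so these 3 did not pass the filter. Rpl10l and Rpl39l are known from testis and Rpl3l from muscle. Their partners Rpl10, Rpl39 and Rpl3 were expressed in each library, Rpl39 at 21.6, 20.6 and 23.8 CPM in wild-type brain, 18.5, 20.03 and 20.7 in knockout brain, 49.00, 49.2 and 40.1 in wild-type liver and 38.2, 45.2 and 44.9 in knockout liver. Rps4l was at 3.23, 2.87 and 3.67 CPM in wild-type brain, 2.47, 2.38 and 4.63 in knockout brain, 9.22, 11.7 and 9.57 in wild-type liver and 11.4, 5.23 and 12.3 in knockout liver and the X-linked gene Rps4x at 49.1, 53.5 and 55.9 CPM in wild-type brain, 46.5, 51.7 and 47.9 in knockout brain, 148, 148 and 153 in wild-type liver and 126, 134 and 146 in knockout liver. Both were lower in brain, Rps4l by -1.64 ± 0.18 and -1.62 ± 0.40 on the log2 scale and Rps4x by -1.499 ± 0.10 and -1.48 ± 0.10. Under library totals the values were -0.80 and -0.77 for Rps4l, the latter (adjusted p 0.00686 on the TMM scale) not past the threshold, and -0.66 and -0.62 for Rps4x. The pseudogenes Rpl32l and Rpl6l had 4 to 17.1 and 5.51 to 28.2 counts per library, too few to place them.

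Many members had near-identical copies in the genome with counts of their own, and whether these come from the copies or from the members was not tested. A copy was a pseudogene or single-exon gene at least 95% identical over at least 50% of the coding sequence of a member, a definition made after seeing the data, and 74 members had at least 1. Copies held 11.8% to 13.6% of the counts of members and copies together in each library. In 7 of the 73 tested members with copies, at least 50% of the counts lay on the copies: Rpl27 (90.3%), Rpl5 (73.0%), Rps23 (72.4%), Rpl27a (70.4%), Rps12 (67.9%), Rps7 (62.7%) and Rpl36a (55.7%). On rows named -ps alone, the largest shares were those of Rpl27 (82.4%), Rps23 (72.4%) and Rpl36a (56.1%).

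Adding the copies narrowed the spread of some members. The row of Rpl10 held 346, 765 and 837 expected counts in wild-type brain, 328, 616 and 469 in knockout brain, 3221, 4949 and 2585 in wild-type liver and 4697, 4982 and 2605 in knockout liver. Its copies held 840.2, 795.6 and 634 in wild-type brain, 749.5, 721 and 767 in knockout brain, 1951, 871 and 2796 in wild-type liver and 830.1, 187 and 2453 in knockout liver. In both liver groups and in wild-type brain the copies were highest in the library in which the gene was lowest. The mean coefficient of variation (SD over mean within groups, averaged) was 31.3% for Rpl10 alone and 4.71% for the sum. For Rpl27 it was 22.9% alone and 4.45% for the sum. Over the 73 members with copies the median went from 6.92% to 6.28%, and the value was lower with copies in 42 of them. The row of Rpl27 itself held 86.6, 70.4 and 85.5 expected counts in wild-type brain, 47.97, 33.6 and 71.7 in knockout brain, 102, 153 and 71.9 in wild-type liver and 113, 97.3 and 95.7 in knockout liver.

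**Figure D4:**
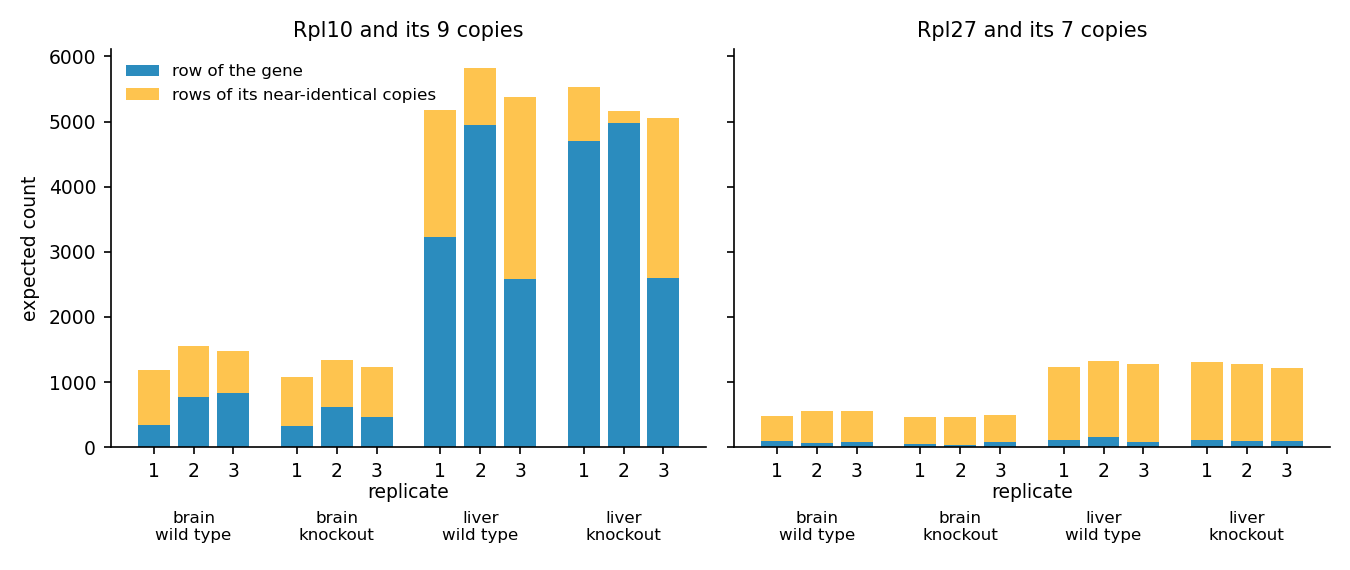
Expected counts per library on the row of Rpl10 (left) and of Rpl27 (right), in blue, stacked with those on their near-identical copies, in yellow. The sum over Rpl10 and its 9 copies varies less within a group than the blue part, and for Rpl27 90.3% of the counts lie on its 7 copies.

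With copies added, 77 members in the wild type and 76 in the knockout were lower in brain, where 6522 of 18785 and 6598 of 18717 genes were lower and 8253 and 8162 higher. Rpl5, not called on its own row in the wild type, then had a log2 fold change of -1.28 ± 0.10 (adjusted p 1.15e-05). Rps12, not called in the knockout, had -1.49 ± 0.12 (adjusted p 1.43e-05). For Rpl27 the value in the wild type went from -0.72 ± 0.29 to -1.57 ± 0.10. Another annotated gene on the same strand overlapped the exons of 27 of the 83 members, over a median of 4.92% of their exon length and up to 47% for Rpl24. Reads of these genes cannot be told apart here.

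No ribosomal protein gene was called between knockout and wild-type liver at an adjusted p under 0.05. edgeR called 0 of 80 members and 0 of all 15329 genes tested (0% of the background). DESeq2 called 0 members, and over all genes 6 as higher and 4 as lower. At an unadjusted p under 0.05, 13 of 80 members were listed, all with lower values in the knockout, while 3.50% of all genes reached it, 1.69% as lower. With DESeq2 8 members reached an unadjusted p under 0.05 (2.78% of all genes in that fit). With edgeR 4 did without replicate 1 of the knockout (3.05% of all genes), 11 without its replicate 2 (2.87%) and 12 without its replicate 3 (7.23%). The number was 10 without replicate 1 of the wild type (3.11%) and 5 without its replicate 2 (2.46%). Without replicate 3 of the wild type it was 11 (2.96%), of which 8 were lower. Of the 80, 64 had a fold change below 0 (48.7% of all genes did), and their median was -0.09 on the log2 scale against 0.01 for all genes. The median was -0.12 for the small and -0.06 for the large subunit.

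Knockout and wild-type liver ranges did not overlap in 23 members, all lower in the knockout; 5.45% of all genes were apart in that direction and 4.16% in the other. Leaving out each library in turn gave between 54 and 68 members below 0 and medians from -0.13 to -0.05. The numbers of the liver libraries pair them by the check given in the processing notes, and with the replicate as a block 17 members had an unadjusted p under 0.05, 15 of them lower, with the smallest adjusted p at 0.375 for Rpl13. With the block 6.41% of all genes reached that unadjusted threshold, and 0.0130% passed after adjustment.

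The 3 members with the smallest p were Rps14, Rpl13 and Rps9. Rps14, a protein of the platform of the small subunit, was at 88.4, 92.2 and 84.03 CPM in wild-type liver and 67.2, 73.8 and 67.2 in knockout liver. Its log2 fold change was -0.34 ± 0.08 (p 0.00357, adjusted 0.992). Rpl13, a large subunit protein, was at 95.1, 83.9 and 103 CPM in wild-type liver and 74.6, 58.8 and 76.1 in knockout liver, with -0.42 ± 0.12 (p 0.00970, adjusted 0.992). The knockout libraries lay below the wild-type libraries in both genes, but Rpl13 moved to -0.16 ± 0.08 when the counts of its copies were added. Rps9, a small subunit protein involved in decoding accuracy, was at 130.0, 133 and 134 CPM in wild-type liver and 104, 113 and 113 in knockout liver, with -0.26 ± 0.08 (p 0.0153, adjusted 0.992). The other 10 were Rpl35a, Rps18, Rpl37a, Rps19, Rpl36, Rps27a, Rpl13a, Rps27, Rplp2 and Rps12, with values from -0.40 ± 0.17 for Rps12 to -0.18 ± 0.07 for Rps27. Rps12 lies at -0.02 ± 0.11 with its copies.

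In liver the fold changes of macrophage, blood and endothelial markers were above 0, none of them called. The summed CPM of the macrophage markers was 166, 222 and 182 in wild-type and 229, 383 and 182 in knockout liver, and all 6 had fold changes above 0, 2 of them (Adgre1 and Cd68) with an unadjusted p under 0.05. Blood markers summed to 107 to 151 CPM in the wild type and 135 to 163 in the knockout, and endothelial markers to 176 to 215 and 203 to 220. All 5 blood and all 5 endothelial markers had fold changes above 0 (Hba-a2, Hbb-bs and Pecam1 with an unadjusted p under 0.05), and none of these or the macrophage markers was at 0 in a liver library. The part of macrophages, blood and endothelial cells in the result was not tested.

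In brain too, no ribosomal protein gene passed. edgeR and DESeq2 each called 0 of 80 members and 0 of 18075 genes (0% of the background), and 2 members had an unadjusted p under 0.05, which 0.658% of all genes reached (0.288% as lower). Of the 80, 60 had fold changes below 0 (48.9% of all genes did), with a median of -0.04 against 0.00 for all genes. That count ranged from 41 without replicate 1 of the knockout to 73 without replicate 3 of the knockout, and it was 51 with the copies added. The members' median was -0.089 without replicate 3 of the knockout. Without its replicate 1 the median was -0.004, which lay 0.0099 above that of all genes. With the replicate as a block 3 members reached the unadjusted threshold, as did 2.20% of all genes. Ranges were apart in 2 members as higher and 3 as lower, against 2.09% and 2.14% of all genes.

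Rpl36a and Rps23 were those 2, and both lie among the members with most counts on copies. Rpl36a, a large subunit protein encoded on chromosome X, was at 6.36, 7.13 and 6.95 CPM in wild-type brain and 8.63, 9.11 and 11.4 in knockout brain, with the knockout above the wild type and a log2 fold change of 0.51 ± 0.15 (p 0.0124, adjusted 1.00). With the counts of its copies it was 0.03 ± 0.14. Rps23, a protein of the decoding centre, was at 19.2, 23.4 and 22.01 CPM in wild-type brain and 17.1, 18.97 and 16.8 in knockout brain, with the knockout below the wild type at -0.29 ± 0.11 (p 0.0348, adjusted 1.00), and -0.03 ± 0.09 with its copies. With copies or -ps rows added, 0 members had an unadjusted p under 0.05. Rpl26, at the exit of the peptide tunnel, came next by p, at 40.6, 43.5 and 44.6 CPM in wild-type brain and 37.3, 41.3 and 34.1 in knockout brain, where the groups overlapped (-0.19 ± 0.10, p 0.0879, adjusted 1.00). Macrophage and microglia markers summed to 50.7 to 80.3 CPM in wild-type and 57.3 to 86.1 in knockout brain, with 5 of 5 fold changes above 0. Choroid plexus and pituitary markers summed to 23.1, 3.19 and 32.1 CPM in wild-type and 41.4, 3.79 and 5.59 in knockout brain, and the part of either list was not tested.

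**Figure D5:**
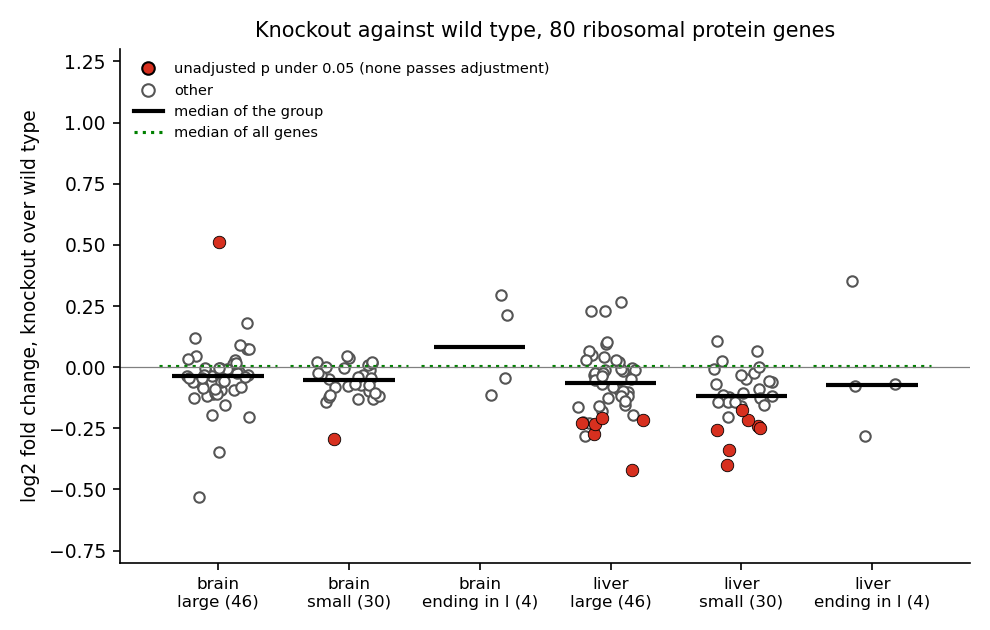
Log2 fold change of knockout over wild type for the 80 ribosomal protein genes tested in brain (left) and liver (right), by subunit, on one vertical axis. Red points have an unadjusted p under 0.05 (2 in brain, 13 in liver), and no point passes after adjustment; black lines are group medians, which lie at -0.12 for the small subunit in liver, and green dotted lines the median of all genes.

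Whether liver and brain responded differently to the knockout was tested with an interaction term in a fit of the 12 libraries. edgeR called 0 of 80 members and 0 of 20141 genes (0%), and DESeq2 0 members and 1 gene. At an unadjusted p under 0.05 stood 5 members, all with a knockout effect more negative in liver than in brain (2.43% of all genes reached it, 1.11% as lower): Rpl35a at -0.27 ± 0.11, Rpl36a at -0.57 ± 0.23, Rps14 at -0.28 ± 0.11, Rpl13 at -0.41 ± 0.18 and Rps27l at -0.38 ± 0.17, each with an edgeR adjusted p of 1.00. With copies added these were -0.08 ± 0.16 for Rpl36a and -0.11 ± 0.12 for Rpl13. In place of 5, 3 members reached that p with copies added (2.42% of all genes), 2 with DESeq2 (2.48%) and 1 with the size factors of DESeq2 in edgeR (2.34%). With the replicate as a block 7 did, 5 of them as lower, where 4.51% of all genes reached it and 0.00993% passed after adjustment. Without a block the number was 0 without replicate 3 of wild-type brain (1.85% of all genes) or of knockout brain (2.08%), and 7 without replicate 1 of the knockout brain (2.49%). It was 1 without replicate 1 of wild-type brain (3.03%) or replicate 2 of knockout brain (2.59%), with 0 as lower in both fits. The members' median of -0.08 became 0.01 without replicate 1 of the wild-type brain or replicate 3 of the knockout brain. Values below 0 were found for 55 of 80 members and 50.8% of all genes.

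Other genes of the translation machinery were read from lists. Their counts stand against all genes tested, of which 34.7% were lower and 43.9% higher in wild-type brain and 35.2% and 43.5% in knockout brain, and with library totals 3999 and 3887 genes were lower and 11623 and 11614 higher. Mitochondrial ribosomal proteins, which translate the mitochondrial genome, were lower in brain in 64 of 78 genes in the wild type and 61 in the knockout, and higher in 4 and 5. With library totals these numbers were 29 and 24 lower and 22 and 22 higher. Mrpl12 was lower in the wild type by -2.14 ± 0.10 on the log2 scale.

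Of 18 translation factors of the TOP class, 14 were lower and 3 higher in brain in each genotype, with medians of -0.76 and -0.83; with library totals the medians turned to 0.07 and 0.04, with 7 and 6 lower and 6 and 6 higher. Eef1a1, the main elongation factor, was at 581, 669.6 and 682 CPM in wild-type brain, 576, 652 and 689.9 in knockout brain, 3595, 3509.7 and 3669 in wild-type liver and 3406, 3338 and 3774 in knockout liver, and it was lower in brain under both scalings. Eef1a2, its form in neurons and muscle, was at 464 to 502 CPM in the brain libraries, whereas those of liver gave 0 to 0.168 CPM, at or below the floor of 3 counts. Of 30 ribosome biogenesis factors, 16 were lower and 9 higher in wild-type brain and 12 and 11 in knockout brain, whereas with library totals 4 and 2 were lower and 19 and 21 higher. The knockout counts of this list are near the shares over all genes, and under library totals this list and all genes have more higher than lower calls. Eif6, which keeps the subunits apart, was lower in wild-type brain by -1.39 ± 0.11 and by -0.55 with library totals. Of 20 regulators of mTORC1 and TOP mRNAs, 7 were lower and 7 higher in wild-type brain and 7 and 5 in knockout brain, and with library totals 7 and 6 were lower and 13 and 13 higher. On the TMM scale the share called lower is near that of all genes, and nothing particular to the list is read from it. Deptor, an mTOR inhibitor, was at 24.04, 35.8 and 31.2 CPM in wild-type brain, 26.99, 39.6 and 26.6 in knockout brain, 455, 511 and 529 in wild-type liver and 513, 436 and 484 in knockout liver and was lower in brain under both scalings. In both knockout comparisons and in the interaction, 0 genes of these lists passed the adjusted threshold with edgeR, where the background was 0% as well.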

How the data were processed

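The authors deposited expected counts per gene for 12 libraries, estimated counts that need not be whole; they were rounded before fitting. Trimming with cutadapt and alignment with STAR to mm10 are named per the submitters' processing notes, while the counting tool, its use of strand and its annotation are not given in the sources used here. Libraries came from TRIzol RNA treated with DNase and were stranded and depleted of ribosomal RNA, per the labels' protocols. Depth was 14844971 to 27155480 counts per library, and intervals and floors of 3 counts cover counting error only.

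The members and the gene lists were chosen with earlier results of these data known. Genes were filtered with filterByExpr (minimum count 10, total 15), scaled by TMM and fitted over the whole table with edgeR 4.0.16 (robust quasi-likelihood F-test, two-sided, in R 4.3.3), with Benjamini-Hochberg adjustment at 0.05 over all genes tested. Comparisons were knockout against wild type in each tissue, their interaction, and brain against liver in each genotype. Fold changes carry their standard error. Named were the members called in a knockout comparison or else the 3 with the smallest p, up to 6 members per direction with the largest tissue difference (mean of both comparisons) among those called alike with ranges apart in both, the paralogs ending in l with partners, the 3 highest and lowest per kb, the stalk proteins and Rpsa, and the 3 with the largest share on -ps rows; Rpl9 and members named for their copies, such as Rpl5 and Rps12, were added after their values were seen. Lists are shown with up to 3 genes among those with the smallest p, and 1 list is not reported here. Exon lengths and IDs came from GENCODE M21, in which all 55450 IDs matched. Copies were found with blastn 2.17.0. The scripts were tested on simulated counts.

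Libraries of 1 group were not duplicates (chi-square per degree of freedom of 27.2 to 228 for the 12 pairs). Deviations of same-numbered liver libraries correlated at 0.33, 0.34 and 0.39 over genes, so their numbers pair them; in brain they were 0.75, 0.71 and -0.04, and across the tissues at most 0.07, so those numbers do not. The main fits have no block. Alternatives were DESeq2 1.42.0, 2 other scalings, 2 other filters, the block, -ps rows or copies added, a fit over all 12 libraries, another gene length and each library left out.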

Additional observations from a re-analysis of the deposited data

How the results depend on the processing

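Counts of members called kept within 1.5 times of the reported ones under every alternative run except the following. With library totals in place of TMM, members higher and lower in brain numbered 4 and 49 in wild-type mice, then 6 and 41 in knockout mice, and 62 and 60 members lay below 0 in place of 78 in each. Among the members chosen by rule for the tissue comparison, Rpl3 reversed to 0.44 and 0.36 on the log2 scale and Rps27 in the knockout to 0.025. Members outside that choice also changed sign, such as Rpl9 in the knockout, and they are not listed in full. Leaving out each library in turn gave 0 to 1 members higher in knockout brain, and 0 without replicate 2 or 3 of the knockout liver. With the replicate block 0 members were called in a knockout comparison or the interaction, and 76 were lower and 1 higher in brain in each genotype. In brain, where number 3 did not correlate between the genotypes, 3 members had an unadjusted p under 0.05 with the block against 2 without. In the interaction 7 did with the block against 5. Over all genes the liver knockout comparison had 0 calls in the reported edgeR fit, 6 higher and 4 lower with DESeq2, 2 higher and 2 lower with no filter beyond 1 count, 1 higher without replicate 2 of the wild type, and 2 with the block. Per kb of the longest protein-coding transcript most named levels moved beyond their SD.

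Limits: 3 libraries a group, an unknown counting method, reads shared with copies and overlapping genes, and scaling that sets the sign of small tissue differences bound what these values show. A member of few counts, such as Rpl32l or Rpl3l, cannot be placed at this depth. Tissue differences in CPM are relative to the other RNA in the same library, and no measure of RNA per cell was used here.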

Other observations

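The members are spread over 19 chromosomes, with 14 of the 83 on chromosome 7 and 4 on chromosome X. The X-linked members Rpl10 and Rpl36a are both among those with identical copies elsewhere in the genome: Rpl36a-ps2 matched the 321 coding bases of Rpl36a with 0 mismatches, as did Rpl10-ps3 the 645 of Rpl10. Rpl27, on chromosome 11, had such a copy too, with 0 mismatches over 411 coding bases. A link between chromosome X and identical copies was not tested. In all, 17 copies were identical to a member over its whole coding sequence.

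In the liver libraries, the counts of Rpl10 and its copies were divided unevenly. The copies held the largest count in replicate 3 of the wild type (2796) and of the knockout (2453), and the smallest in replicate 2 of both (871 and 187), while the sum of gene and copies lay between 5059 and 5820 in all 6. The cause was not tested.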
